A study of Rattus norvegicus with 418 samples.

Results

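Livers of male rats given diquat dibromide at 25 mg/kg and killed 48 h later were compared with livers of rats given the PBS vehicle (0 mg/kg) in the diquat experiment and killed at the same time. These 12 arrays, chosen by their labels for compound, dose and time, were 12 of 418 in the series and 12 of 90 in the diquat experiment. Each group held 6 rats, with 1 array per rat. All were F344/N males of 10-12 weeks, fasted for 12-18 h beforehand and dosed by the I.P. route, and RNA came from a flash frozen piece of the left lateral lobe. The series exposed rats to 1 of several liver toxicants and recorded liver necrosis in each animal. Diquat rats were also given 5, 10 or 20 mg/kg, and other groups were killed at 6 h and 24 h.

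Diquat is a bipyridyl herbicide. Inside cells it takes an electron from flavin enzymes such as NADPH-cytochrome P450 reductase and passes it to oxygen, which makes superoxide and returns the diquat for another cycle. The liver removes superoxide with superoxide dismutase and the resulting hydrogen peroxide with catalase and glutathione peroxidase. When hepatocytes die, macrophages clear the debris and surviving liver cells can re-enter the cell cycle.

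The necrosis score was 1 in 25 mg/kg rats 1 to 5 and 0 in 25 mg/kg rat 6, against 2 in vehicle rat 1 and 0 in vehicle rats 2 to 6. The mean was 0.833 ± 0.408 in 25 mg/kg rats and 0.333 ± 0.816 in vehicle rats (SD, n = 6 each). This difference of 0.5 did not hold up (exact permutation test over 924 splits, two-sided, p = 0.405). The highest score of the 12 rats was in a vehicle rat. The labels also give 2 separate readings per rat, which were equal in all 6 of the 25 mg/kg rats but were 0 and 1 in vehicle rat 1. The score of 2 in vehicle rat 1 was thus above both of its readings. In 25 mg/kg rats 1 to 5 both readings were 1 and the score was 1. At 24 h, 25 mg/kg rat 2 had readings of 1 and 1 and a score of 2. So scores and readings did not order the rats alike, and the labels do not settle which rat had the most necrosis. Without vehicle rat 1 the difference was 0.833 (exact permutation test, p = 0.0152). That rat stands out by the score under test, so this p cannot decide whether the groups differed. Without 25 mg/kg rat 6 the difference was 0.667 (exact permutation test, p = 0.177). Leaving out any other single rat gave 0.433 or 0.467 (exact permutation test, p = 0.405). The share of rats with a score of at least 1 differed by 0.667 (exact permutation test, p = 0.0801). Both 25 mg/kg rat 6 and vehicle rat 1 went against their groups by score, so list counts that moved by over 1.5 times without rat 6 are given both ways.

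Values were MAS5 signals, the fluorescence summary of the 3' expression array, scaled by the authors to a common mean. Changes were fitted on log2(signal + 16) in limma, which understates the change of dim genes, and a gene was called at an adjusted p under 0.05. Changes are given ± SE. Array medians on the log2 scale were 6.88 to 7.16 in 25 mg/kg rats and 6.78 to 6.98 in vehicle rats, and 12.2 to 14.1% and 13.5 to 15.8% of probe sets had a signal under 16. The 3'/5' ratios of actin, a sign of RNA quality, were 2.89 to 3.73 in 25 mg/kg rats and 3.21 to 3.75 in vehicle rats, and those of Gapdh were 1.22 to 1.40 and 1.36 to 1.56. All 25 mg/kg arrays were hybridised on 1 day and all vehicle arrays on another, so day and dose cannot be told apart in the main comparison. The day of the 25 mg/kg arrays also held 2 rats at 5 mg/kg and 3 rats at 10 mg/kg, all with score 0, which were used as a same-day comparison. The array of 25 mg/kg rat 6 had a median correlation over genes of 0.952 with vehicle arrays and 0.941 with arrays of its own group. In the other 25 mg/kg rats the correlation with the own group was the higher of the 2.

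At 48 h, 25 mg/kg changed the liver signal of 1216 of 14217 genes (8.55%), with 779 higher (5.48%) and 437 lower (3.07%). The median change of all genes was 0.05. When each array was centred on its own median, which moved this median to -0.09, the split was 479 higher and 1160 lower, so the balance of rises and falls depended on the scaling. A change of at least 2-fold was found in 354 called genes, 283 of them higher and 71 lower. Signals of all 25 mg/kg rats lay above those of all vehicle rats in 295 genes (2.07%) and below them in 336 (2.36%), of which 184 and 190 were called. Leaving out 25 mg/kg rat 6 gave 1793 called genes, with 1140 higher (8.02%) and 653 lower (4.59%), and leaving out vehicle rat 1 as well gave 1078 higher (7.58%) and 554 lower (3.9%). Leaving out 25 mg/kg rat 2 alone gave 721 and leaving out rat 4 gave 806. With day as a fixed term, which leaves the median SE at 0.63 in place of 0.21, 0 genes were called (1007 at an unadjusted p under 0.05). Against the low-dose rats of the same day 839 genes were called (5.9%), with 574 higher (4.04%) and 265 lower (1.86%). Of the 1216 genes called against vehicle, 580 were called there in the same direction. Those low-dose rats differed from vehicle rats, hybridised on another day, in 0 genes by limma (658 at an unadjusted p under 0.05).

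Signals of fatty acid synthesis genes were lower after diquat. Of 16 measured genes of this list, 7 fell, 1 rose and 8 were not called, with a median change of -1.05. Scd, stearoyl-CoA desaturase, which puts the double bond into newly made fatty acids, had the largest fall of all genes tested. Its signals were 228, 161, 143, 119, 2970 and 7207 in 25 mg/kg rats 1 to 6, against 24612, 15620, 31394, 25292, 27877 and 23106 in vehicle rats 1 to 6 (log2 change -5.54 ± 1.23, adjusted p = 0.002). The groups did not overlap, yet 25 mg/kg rats 5 and 6 kept far more signal than rats 1 to 4. Srebf1, which encodes the transcription factor that drives this pathway, had signals of 1524, 1984, 1571, 1402, 4589 and 6282 in 25 mg/kg rats 1 to 6, against 10021, 9108, 13218, 9201, 8636 and 6484 in vehicle rats 1 to 6 (log2 change -1.94 ± 0.52, adjusted p = 0.0103). Again 25 mg/kg rats 5 and 6 were nearest to the vehicle rats, and rat 6 lay just under the lowest of them.

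Pklr, liver pyruvate kinase, which feeds sugar carbon into the pathway, had signals of 510 to 2425 (median 704) in the 25 mg/kg rats, against 3042 to 5873 (median 3772) in vehicle rats (log2 change -2.03 ± 0.52, adjusted p = 0.00687). Pnpla3, a lipid droplet hydrolase, showed 38 to 288 (median 74) in the 25 mg/kg rats, against 410 to 1534 (median 723) in vehicle rats (log2 change -2.91 ± 0.89, adjusted p = 0.0259). Thrsp, a nuclear regulator of lipid synthesis, showed 4397 to 11710 (median 6371) in the 25 mg/kg rats, against 14097 to 28942 (median 24573) in vehicle rats (log2 change -1.74 ± 0.57, adjusted p = 0.0409). In none of these did the groups overlap. Fasn, fatty acid synthase itself, fell by 1.95 on the log2 scale (SE 0.66, adjusted p = 0.0475) and did overlap, because vehicle rat 6 had 4506 and 25 mg/kg rat 6 had 5084. Elovl5, a fatty acid elongase, changed by -0.84 (adjusted p = 0.0229). Outside the list, Mid1ip1, a relative of Thrsp, showed 1082 to 4596 (median 1434) in the 25 mg/kg rats, against 4948 to 6352 (median 5414) in vehicle rats (log2 change -1.56 ± 0.47, adjusted p = 0.025), and Me1, which makes NADPH for fatty acid synthesis, 353 to 1975 (median 471) in the 25 mg/kg rats, against 1934 to 3209 (median 2381) in vehicle rats (log2 change -1.82 ± 0.46, adjusted p = 0.00575). The member that rose was Gpam, which starts glycerolipid assembly (log2 change 0.90 ± 0.29, adjusted p = 0.0342). Against the same-day low-dose rats 2 list members were lower and 1 was higher, with a median of -0.99. Of the list members that fell, Scd (-4.08, adjusted p = 0.0328) and Pklr (-1.81, adjusted p = 0.0296) were those that passed there, while Srebf1 (-1.52) had an adjusted p of 0.0749 and Thrsp (-1.58) one of 0.102. Fasn lost its call in 10, Thrsp in 9, Gpam in 7 and Pnpla3 in 6 of the 12 fits that left out a rat, Mid1ip1 lost it without 25 mg/kg rat 1, 2, 3 or 4 and Elovl5 without rat 1, 3 or 4. Fasn, Pnpla3, Elovl5 and Me1 did not pass against the same-day rats either (adjusted p = 0.11, 0.192, 0.184 and 0.075). Fasn and Gpam were named after their values were seen, as were Acot1, Plin2, Cdk1, Lgals3, Hmox1, Nqo1 and Igf1.

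**Figure D1:**
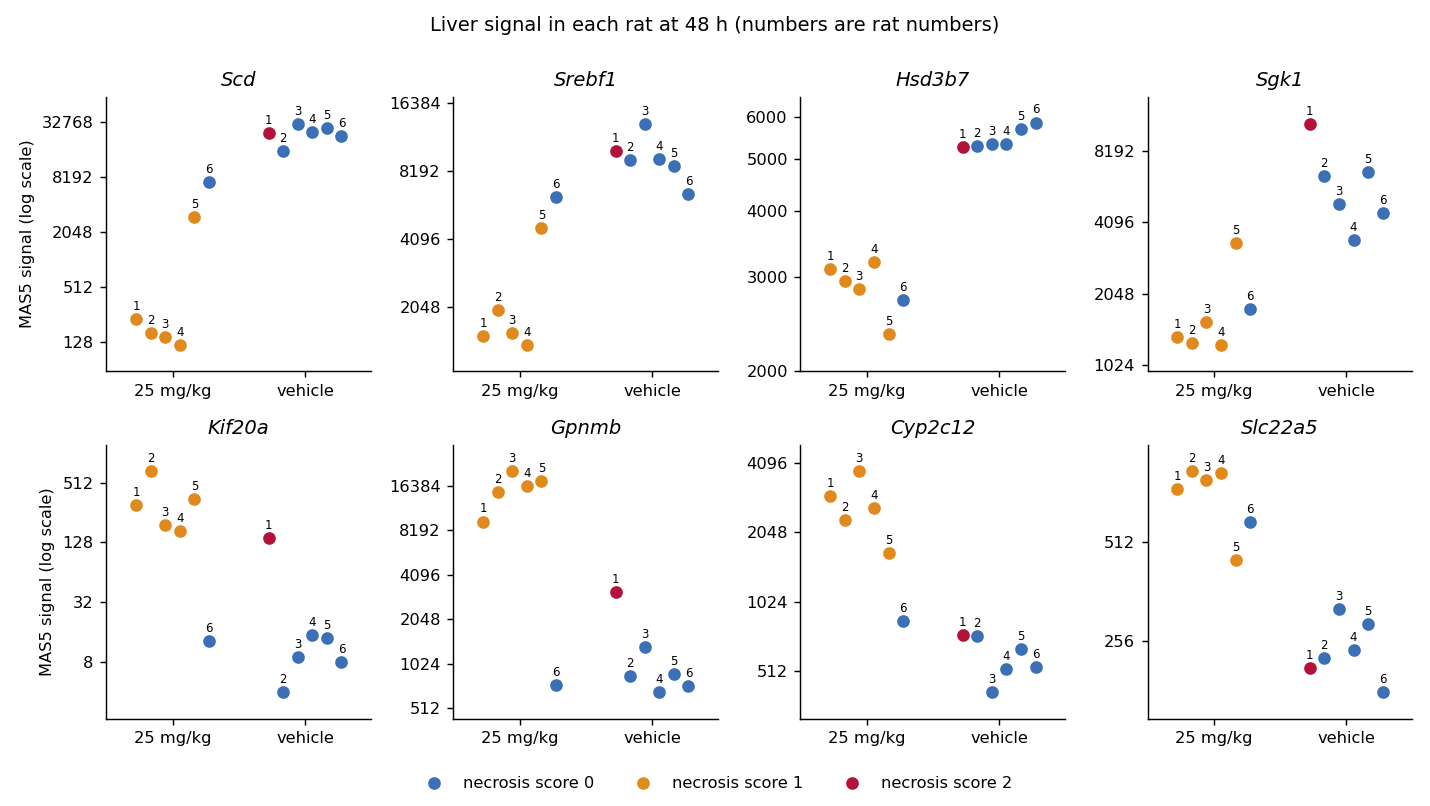
MAS5 signal (log axis) of 8 genes in each of the 6 rats at 25 mg/kg and the 6 vehicle rats at 48 h, each point a rat with its number, coloured by necrosis score. For Kif20a and Gpnmb the 25 mg/kg rat with score 0 (rat 6, signals of 13 and 729) sat among the vehicle rats, while for Scd, Hsd3b7, Sgk1 and Slc22a5 all 25 mg/kg rats lay on one side of all vehicle rats.

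Genes of fatty acid oxidation moved the other way. In the list of PPAR alpha targets, the genes that a fatty acid-sensing nuclear receptor turns on, 7 of 23 rose and 1 fell, with a median of 0.33. Cpt1a, which admits fatty acids to the mitochondrion, had signals of 10901, 13252, 10461, 11380, 10328 and 16333 in 25 mg/kg rats 1 to 6, against 6269, 5231, 7375, 6016, 8306 and 8375 in vehicle rats 1 to 6 (log2 change 0.81 ± 0.20, adjusted p = 0.00596). Here 25 mg/kg rat 6, without scored necrosis, had the highest signal of all. Cyp4a1, a fatty acid hydroxylase, rose by 0.66 (adjusted p = 0.000817), Hadhb, a subunit of the mitochondrial trifunctional protein, by 0.48 (adjusted p = 0.00357) and Vnn1, pantetheinase, by 1.61 (adjusted p = 0.000342), and for each the groups were apart. Acot1, an acyl-CoA thioesterase, had the largest value of the list but differed widely between rats and has close relatives that may share its probes, with 332, 2837, 23, 147, 662 and 6 in 25 mg/kg rats 1 to 6, against 19, 3, 20, 37, 38 and 24 in vehicle rats 1 to 6 (log2 change 2.51 ± 0.80, adjusted p = 0.0342). The member that fell was Plin2, a lipid droplet coat protein (log2 change -0.81 ± 0.26, adjusted p = 0.0396), whose change was 0.01 when all of its probe sets were averaged. Slc22a5, which carries carnitine into cells, is not in this list and gave signals of 747, 846, 794, 836, 451 and 589 in 25 mg/kg rats 1 to 6, against 211, 226, 319, 240, 287 and 178 in vehicle rats 1 to 6 (log2 change 1.48 ± 0.24, adjusted p = 2.72e-05). Every 25 mg/kg rat exceeded every vehicle rat, and the difference from same-day low-dose rats was 1.27 (adjusted p = 0.000446). Rxra, the partner receptor of PPAR alpha and many other nuclear receptors, had 238 to 605 (median 472) in the 25 mg/kg rats, against 52 to 198 (median 143) in vehicle rats (log2 change 1.63 ± 0.29, adjusted p = 0.00012), and was 1.30 higher than in the same-day rats (adjusted p = 0.00407). Against the same-day rats 6 members of the PPAR alpha list rose and 0 fell, and without 25 mg/kg rat 6, 8 rose and 3 fell. Acot1 and Plin2 each lost the call in 8 of the 12 fits that left out a rat and did not pass against the same-day rats (adjusted p = 0.115 and 0.148).

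Of 17 bile acid genes 1 was higher and 2 were lower, beside 5.48% and 3.07% of all genes. Hsd3b7, an early enzyme of bile acid synthesis, had signals of 3107, 2954, 2853, 3203, 2351 and 2715 in 25 mg/kg rats 1 to 6, against 5280, 5304, 5350, 5340, 5704 and 5860 in vehicle rats 1 to 6 (log2 change -0.94 ± 0.17, adjusted p = 0.000132). All 25 mg/kg rats, rat 6 included, lay within a narrow range well below the vehicle rats. Cyp8b1, which directs synthesis to cholic acid, had 14931 to 35470 (median 30303) in the 25 mg/kg rats, against 10664 to 16755 (median 14475) in vehicle rats (log2 change 0.95 ± 0.22, adjusted p = 0.00286), and the overlap came from 25 mg/kg rat 6 with 14931. Abcc2, the canalicular export pump, changed by -1.02 (adjusted p = 0.0307). Abcc2 lost its call in 6 of the 12 fits that left out a rat, and against the same-day rats neither it (-0.95, adjusted p = 0.0798) nor Cyp8b1 (0.67, adjusted p = 0.0621) passed. Of 18 measured cholesterol synthesis genes 1 rose, Sqle, squalene epoxidase (log2 change 1.52 ± 0.45, adjusted p = 0.0222), 0 fell, and the median of the list was 0.24. It was 3 that rose when 25 mg/kg rat 6 was left out. The share of all genes called higher was 5.48% with that rat and 8.02% without it. Sqle lost its call in 6 of the 12 fits that left out a rat and was 0.89 against the same-day rats (adjusted p = 0.277).

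By number, cell cycle genes were the list with the most calls. Of 33 measured genes 21 rose, 0 fell, and all 33 changes were positive, with a median of 1.5. The share called was larger among macrophage markers, at 11 of 15. Kif20a, a kinesin of cell division, had signals of 307, 666, 192, 165, 353 and 13 in 25 mg/kg rats 1 to 6, against 141, 4, 9, 15, 14 and 8 in vehicle rats 1 to 6 (log2 change 2.60 ± 0.48, adjusted p = 0.000226). The 25 mg/kg rats with score 1 were high, 25 mg/kg rat 6 was at the vehicle level, and vehicle rat 1, with score 2, was the high one among vehicle rats. Prc1, which bundles the microtubules of the dividing cell, was also lowest in 25 mg/kg rat 6, with 661, 1354, 412, 359, 552 and 13 in 25 mg/kg rats 1 to 6, against 195, 15, 85, 14, 17 and 83 in vehicle rats 1 to 6 (log2 change 2.54 ± 0.57, adjusted p = 0.00198). Ccna2, cyclin A, had 248, 838, 106, 193, 341 and 20 in 25 mg/kg rats 1 to 6, against 89, 4, 2, 10, 31 and 56 in vehicle rats 1 to 6 (log2 change 2.41 ± 0.54, adjusted p = 0.00211), and Cdk1, the kinase that starts mitosis, had 454, 1392, 176, 488, 649 and 118 in 25 mg/kg rats 1 to 6, against 249, 77, 113, 35, 36 and 152 in vehicle rats 1 to 6 (log2 change 1.99 ± 0.55, adjusted p = 0.0134). Vehicle rat 1 was the highest vehicle rat for both. Bub1b, of the spindle checkpoint, changed by 1.90 (adjusted p = 0.000276), Plk1, a mitotic kinase, by 2.01 (adjusted p = 0.00796) and Cdca3, a trigger of mitotic entry, by 2.33 (adjusted p = 0.00347). In 1 of the 33 genes did all 25 mg/kg rats exceed all vehicle rats.

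Cdk1 lost its call without 25 mg/kg rat 2 (adjusted p = 0.0764). The mean log2(signal + 16) over the cell cycle list was 8.40, 9.71, 7.96, 8.09, 8.81 and 6.64 in 25 mg/kg rats 1 to 6, against 7.72, 6.60, 6.63, 6.63, 6.57 and 7.09 in vehicle rats 1 to 6. All 25 mg/kg rats with score 1 were above vehicle rat 1, and 25 mg/kg rat 6 was below 2 of the vehicle rats. Without 25 mg/kg rat 6, 29 of the 33 genes rose and the median was 1.79. Without 25 mg/kg rat 6 and vehicle rat 1, 28 rose and the median was 1.87. Against the same-day low-dose rats, 21 rose and 0 fell, with a median of 1.52. Cenpw, a centromere protein outside the list, had 60 to 353 (median 118) in the 25 mg/kg rats, against 3 to 40 (median 15) in vehicle rats and no overlap (log2 change 2.19 ± 0.46, adjusted p = 0.000945), but was 0.57 above the same-day rats (adjusted p = 0.547).

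Because these genes moved together, their promoters (RefSeq, build GRCr8, 250 bases before to 50 after the start) were searched on both strands for TTTGAA, the CHR element known from mitotic promoters, and CCAAT, the CCAAT box. Of the 21 that rose, 18 matched a promoter. TTTGAA was in 10 of these 18 (55.6%), against 2 of the 8 matched members that were not called (25.0%), 12.3% of 11733 promoters of measured genes and 18.3% of all promoters in the table. CCAAT was in 14 (77.8%), against 5 of those 8 (62.5%), 37.3% of measured genes and 37.5% of all promoters. Both were in 9 (50.0%), against 1 of those 8 (12.5%), 5.02% of measured genes and 7.41% of all promoters. By limma 30 of the 33 list members were higher at an unadjusted p under 0.05, so those not called are no unchanged set. The list was made of cell division genes, so a share above that of all genes says nothing of diquat. The promoters of 3 genes that rose are shown, Prc1 (chr1:143659231-143659530, plus strand), Plk1 (chr1:186147408-186147707, plus strand) and Bub1b (chr3:126016817-126017116, plus strand). Capitals mark either element on either strand.
Prc1: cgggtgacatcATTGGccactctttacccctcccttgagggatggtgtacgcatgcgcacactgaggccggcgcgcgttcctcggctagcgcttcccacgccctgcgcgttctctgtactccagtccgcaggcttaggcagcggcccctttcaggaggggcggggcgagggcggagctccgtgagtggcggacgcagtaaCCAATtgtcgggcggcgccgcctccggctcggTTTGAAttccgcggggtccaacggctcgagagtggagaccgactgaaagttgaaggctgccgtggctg
Plk1: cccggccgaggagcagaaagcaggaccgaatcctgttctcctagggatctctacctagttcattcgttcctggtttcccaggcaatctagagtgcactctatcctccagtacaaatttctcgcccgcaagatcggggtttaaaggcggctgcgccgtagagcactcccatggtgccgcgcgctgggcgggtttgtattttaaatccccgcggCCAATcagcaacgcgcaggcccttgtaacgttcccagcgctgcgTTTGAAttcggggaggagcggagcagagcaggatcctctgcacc
Bub1b: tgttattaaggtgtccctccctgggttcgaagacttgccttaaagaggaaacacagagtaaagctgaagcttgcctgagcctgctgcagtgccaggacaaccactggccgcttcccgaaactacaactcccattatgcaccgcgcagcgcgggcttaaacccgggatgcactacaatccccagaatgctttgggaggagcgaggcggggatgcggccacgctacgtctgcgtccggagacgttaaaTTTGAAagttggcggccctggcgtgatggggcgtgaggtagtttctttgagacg
In Prc1 and Plk1 a CCAAT box lay upstream of the CHR letters, and in Bub1b only the CHR letters were in the window. A match is a run of letters and not a measured binding site.

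Macrophage markers rose with the cell cycle genes and in the same rats. Of 15 measured markers 11 rose and 0 fell, with a median of 0.87. Gpnmb, a membrane protein of macrophages that take up debris and lipid, had signals of 9381, 14800, 20568, 16324, 17762 and 729 in 25 mg/kg rats 1 to 6, against 3138, 850, 1325, 657, 870 and 719 in vehicle rats 1 to 6 (log2 change 3.09 ± 0.61, adjusted p = 0.000483). Spp1, osteopontin, made by such macrophages and by bile duct cells, had 2696, 9560, 6573, 4875, 17741 and 117 in 25 mg/kg rats 1 to 6, against 1228, 108, 639, 75, 88 and 18 in vehicle rats 1 to 6 (log2 change 4.31 ± 0.97, adjusted p = 0.00213). Lgals3, galectin-3, had 6887, 11606, 8948, 8594, 11227 and 1045 in 25 mg/kg rats 1 to 6, against 2365, 1330, 1600, 1062, 1409 and 1497 in vehicle rats 1 to 6 (log2 change 2.10 ± 0.51, adjusted p = 0.00384). For all of these 25 mg/kg rats 1 to 5 were above every vehicle rat, 25 mg/kg rat 6 was not, and vehicle rat 1 was the highest vehicle rat.

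Other genes of the macrophage list rose by smaller amounts. Csf1r, the receptor for macrophage growth factor, had 897 to 2143 (median 1866) in the 25 mg/kg rats, against 762 to 1038 (median 881) in vehicle rats (log2 change 0.88 ± 0.14, adjusted p = 4.15e-05). Cd68, a lysosomal protein of macrophages, had 828 to 3340 (median 2522) in the 25 mg/kg rats, against 873 to 1266 (median 1059) in vehicle rats (log2 change 1.04 ± 0.22, adjusted p = 0.000947), and Cd163, the haemoglobin scavenger receptor, 628 to 1579 (median 1296) in the 25 mg/kg rats, against 522 to 796 (median 562) in vehicle rats (log2 change 0.89 ± 0.18, adjusted p = 0.000509). The signal summed over the 15 macrophage markers was 25941 to 95923 in 25 mg/kg rats and 29275 to 38613 in vehicle rats, the lowest of all being 25 mg/kg rat 6. Without that rat 12 markers rose (median 1.04), and 7 rose against the same-day rats (median 0.62). In bulk liver a change in the number of cells of a type and a change in RNA per cell cannot be told apart.

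Lists of other non-parenchymal cells had called members too, in no case lower. Of 10 neutrophil markers 2 rose, Csf3r, the G-CSF receptor (log2 change 1.96 ± 0.49, adjusted p = 0.00536), and Itgam, an integrin shared with macrophages (log2 change 1.60 ± 0.45, adjusted p = 0.0138). The list had a median of 1.00 and a summed signal of 533 to 2601 in 25 mg/kg rats and 382 to 675 in vehicle rats. Without 25 mg/kg rat 6, 4 rose, and against the same-day rats 1 rose and Csf3r was 1.0 (adjusted p = 0.268). Of 15 stellate cell and matrix markers 5 rose, among them Col1a2, a collagen I chain (log2 change 1.38 ± 0.30, adjusted p = 0.00169), Timp1, a protease inhibitor (log2 change 1.92 ± 0.48, adjusted p = 0.00534), and Sparc, a matrix glycoprotein (log2 change 0.82 ± 0.16, adjusted p = 0.000342). Their summed signal was 13518 to 31755 in 25 mg/kg rats and 13599 to 20657 in vehicle rats, and without 25 mg/kg rat 6, 8 rose. Of 13 sinusoidal endothelial markers 6 rose, led by Nos3, endothelial nitric oxide synthase, with 122 to 302 (median 244) in the 25 mg/kg rats, against 37 to 112 (median 66) in vehicle rats and no overlap (log2 change 1.48 ± 0.28, adjusted p = 0.000361). Against the same-day rats 2 of them rose, as did 2 with each array centred on its median. Their summed signal was 12578 to 18618 in 25 mg/kg rats and 10985 to 14391 in vehicle rats. Of 16 T, NK and B cell markers 1 rose, Ptprc, the common leukocyte antigen (log2 change 1.29 ± 0.29, adjusted p = 0.00211), which all these cells share with myeloid cells. That is 1 of 16, beside 5.48% of all genes, and without 25 mg/kg rat 6 it was 2. Cd33, a lectin of myeloid cells, had 89 to 469 (median 243) in the 25 mg/kg rats, against 8 to 83 (median 34) in vehicle rats and no overlap (log2 change 2.27 ± 0.57, adjusted p = 0.00537), but was 1.63 against the same-day rats (adjusted p = 0.0906).

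Hepatocyte markers were lower in sum, at 390591 to 447089 in 25 mg/kg rats and 476508 to 525726 in vehicle rats. Of the 11 measured, 1 fell, Cyp2c11, and the list median was -0.17. With each array centred on its median 7 fell, beside 1160 of all 14217 genes, and the list median was -0.32. After quantile normalization 1 fell, 1 rose and the list median was 0.01. Hbb, a haemoglobin chain and a sign of blood in the tissue, had 3996 to 13385 (median 6414) in the 25 mg/kg rats, against 12699 to 15964 (median 14232) in vehicle rats (log2 change -1.09 ± 0.21, adjusted p = 0.000483), and was the 1 of 6 erythroid markers called (2 without 25 mg/kg rat 6 and 3 with median centring, all lower). Their summed signal was 4846 to 14502 in 25 mg/kg rats and 13746 to 17131 in vehicle rats. The part of these shifts in cell markers in the changes of other genes was not tested.

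**Figure D2:**
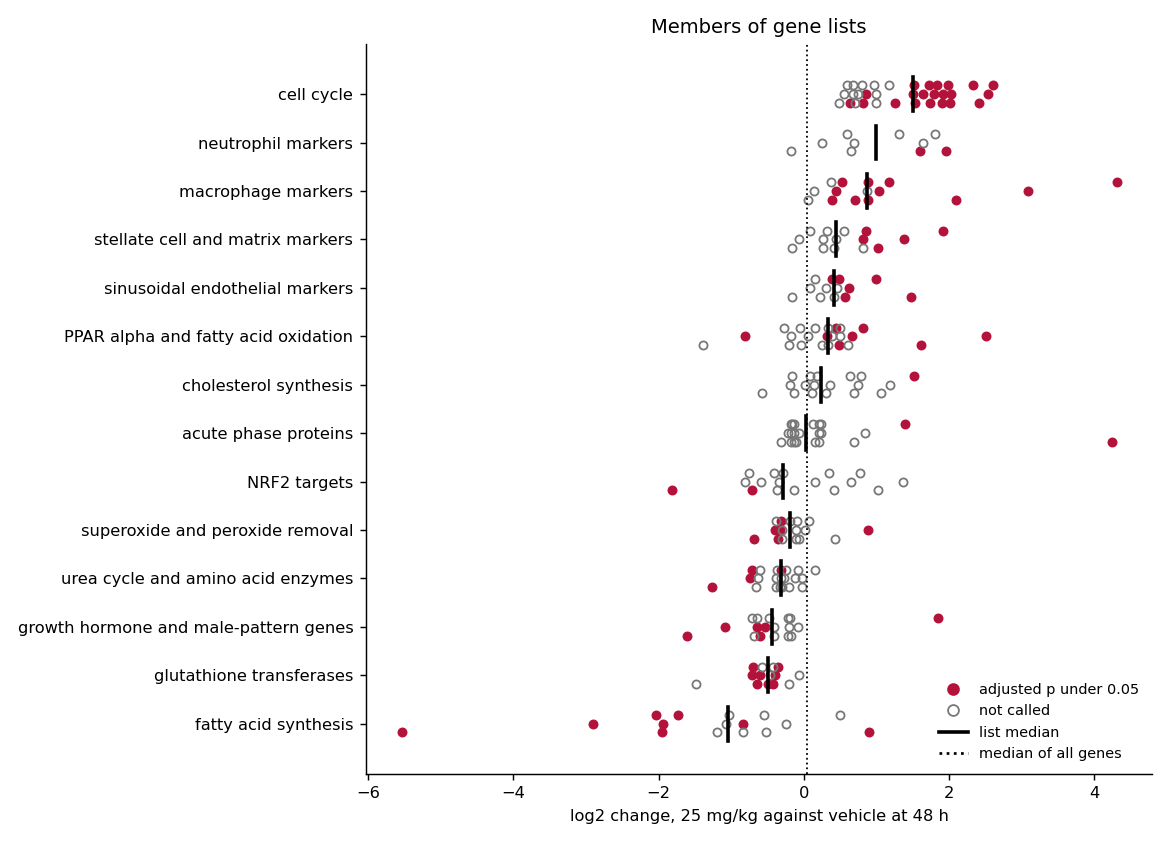
Log2 change of every measured member of 14 gene lists, 25 mg/kg against vehicle at 48 h, with filled points for called genes, a thick line for the list median and a dotted line for the median of all genes (0.05). The cell cycle list lay wholly to the right of 0 (median 1.5) and the fatty acid synthesis list mostly to the left (median -1.05, with Scd at -5.54).

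Genes that remove superoxide and peroxide fell in 5 of 17 cases and rose in 1 (median -0.19). Gpx1, the main glutathione peroxidase, had signals of 19375, 20745, 25766, 23023, 28284 and 31573 in 25 mg/kg rats 1 to 6, against 39704, 36517, 39171, 37646, 44778 and 38979 in vehicle rats 1 to 6 (log2 change -0.69 ± 0.14, adjusted p = 0.000588). Sod1, cytosolic superoxide dismutase, had 27962, 27767, 26151, 29454, 28936 and 33522 in 25 mg/kg rats 1 to 6, against 36037, 36212, 36268, 36538, 39806 and 36288 in vehicle rats 1 to 6 (log2 change -0.35 ± 0.08, adjusted p = 0.00272). Both falls were small, both were without overlap, and in both 25 mg/kg rat 6 was the nearest to the vehicle rats. The member that rose was Glrx, glutaredoxin (log2 change 0.89 ± 0.24, adjusted p = 0.011). Of 14 glutathione transferases, which couple glutathione to reactive molecules, 8 fell, 0 rose and all 14 changes were negative (median -0.49). Gstm1 had 11286 to 21790 (median 14573) in the 25 mg/kg rats, against 22549 to 28659 (median 25191) in vehicle rats (log2 change -0.70 ± 0.18, adjusted p = 0.00928) and Gstm2 7920 to 16854 (median 11741) in the 25 mg/kg rats, against 17777 to 21249 (median 19427) in vehicle rats (log2 change -0.71 ± 0.19, adjusted p = 0.00917). These near-identical genes may share probes, so the values may not be separate. Against the same-day rats 2 transferases and 2 of the superoxide and peroxide genes were lower, and Glrx, Gstm1 and Gstm2 did not pass (adjusted p = 0.0662, 0.0894 and 0.0951). Without 25 mg/kg rat 6, 2 superoxide and peroxide genes rose and 5 fell, and without 25 mg/kg rat 2 Gstm2 lost its call.

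Targets of NRF2, the transcription factor that answers oxidative stress, were called higher in 0 of 17 cases and lower in 2 by limma at 48 h (median -0.29). Leaving out 25 mg/kg rat 6 gave 1 higher and 1 lower. At an unadjusted p under 0.05, 2 were higher and 4 lower. The members that fell by the adjusted p were Me1 and Gsr, glutathione reductase, which had 141 to 239 (median 211) in the 25 mg/kg rats, against 254 to 464 (median 297) in vehicle rats (log2 change -0.71 ± 0.23, adjusted p = 0.0349). Gsr lost its call in 6 of the 12 fits that left out a rat, among them that without 25 mg/kg rat 6 (adjusted p = 0.0644), and against the same-day rats (adjusted p = 0.15). Hmox1, heme oxygenase, had signals of 1227, 2028, 2992, 1927, 1963 and 560 in 25 mg/kg rats 1 to 6, against 689, 884, 783, 646, 1020 and 682 in vehicle rats 1 to 6 (log2 change 1.02 ± 0.61, adjusted p = 0.336). In 25 mg/kg rats 1 to 5 it was above every vehicle rat, and 25 mg/kg rat 6 was below them all. Nqo1, a quinone reductase, had a change of -0.29 ± 0.23 (adjusted p = 0.496). Of 12 metal, iron and heme genes 2 rose, the iron exporter Slc40a1 (log2 change 0.73 ± 0.16, adjusted p = 0.0019) and the zinc exporter Slc30a1 (log2 change 0.98 ± 0.24, adjusted p = 0.00384). The counts were 3 higher and 1 lower without 25 mg/kg rat 6. Against the same-day rats Slc40a1 was 0.32 (adjusted p = 0.304). Among 20 p53 targets Fas, a death receptor, rose (log2 change 1.11 ± 0.28, adjusted p = 0.00618) and 2 fell, Rprm, an inhibitor of the cell cycle, with 74 to 193 (median 116) in the 25 mg/kg rats, against 321 to 498 (median 453) in vehicle rats (log2 change -1.76 ± 0.32, adjusted p = 0.00023), and Perp, a membrane protein linked to cell death (log2 change -0.79 ± 0.15, adjusted p = 0.000342). Fas and Perp did not pass against the same-day rats (adjusted p = 0.101 and 0.0626). The p53 counts of 1 higher and 2 lower of 20 stand beside 5.48% and 3.07% of all genes. Of the 26 ER stress and ATF4 targets, 10 heat shock genes and 18 immediate early genes 0 were called by limma, with 3 higher and 1 lower, 0 higher and 2 lower, and 3 higher and 1 lower at an unadjusted p under 0.05. Without 25 mg/kg rat 6, 2 ER stress and ATF4 targets and 1 immediate early gene were called higher.

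Several male-specific liver genes fell and a female-specific one rose after diquat. In the list of genes under growth hormone control 5 of 18 fell and 1 rose (median -0.44). Cyp2c11, the main male-specific P450 of rat liver, had signals of 10008, 8144, 8814, 9645, 32393 and 39556 in 25 mg/kg rats 1 to 6, against 45868, 43487, 44103, 43295, 43844 and 43259 in vehicle rats 1 to 6 (log2 change -1.61 ± 0.36, adjusted p = 0.00206). Cyp2c12, its female-specific relative, had 2960, 2313, 3784, 2612, 1671 and 842 in 25 mg/kg rats 1 to 6, against 730, 723, 413, 519, 636 and 533 in vehicle rats 1 to 6 (log2 change 1.85 ± 0.40, adjusted p = 0.00148). In both genes 25 mg/kg rats 1 to 4 were farthest from vehicle and rat 6 was nearest, without overlap. Cux2, a repressor that is normally female-biased in rodent liver, had 507, 209, 404, 231, 182 and 56 in 25 mg/kg rats 1 to 6, against 11, 28, 40, 9, 18 and 15 in vehicle rats 1 to 6 (log2 change 2.77 ± 0.56, adjusted p = 0.000738), again with rat 6 nearest. Against the same-day rats Cyp2c12 was 1.99 higher (adjusted p = 0.00148), Cyp2c11 was -1.36 (adjusted p = 0.0182) and Cux2 was 1.53 (adjusted p = 0.0986). Cux2 was also called at 10 mg/kg, where all scores were 0 (log2 change 2.57, adjusted p = 0.0441), and 3 of those rats are among the same-day rats. Cyp3a2, another male-predominant P450, had 8603 to 28245 (median 14182) in the 25 mg/kg rats, against 30855 to 36015 (median 32241) in vehicle rats (log2 change -1.09 ± 0.24, adjusted p = 0.00185), and Igf1, the growth hormone target that circulates, changed by -0.54 (adjusted p = 0.0485). Igf1 lost its call in 10 of the 12 fits that left out a rat and had an adjusted p of 0.0514 against the same-day rats. Sequences of P450 relatives are alike enough that probes may not separate them fully.

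Genes of drug metabolism were mixed. Of 13 measured CAR and PXR targets 3 fell, Cyp3a9 (log2 change -1.46 ± 0.28, adjusted p = 0.000419), Abcc2 and Ugt2b1, a glucuronosyltransferase (log2 change -1.0 ± 0.29, adjusted p = 0.0204), and 2 rose, among them Por, the reductase that passes electrons to P450 enzymes and to diquat (log2 change 1.10 ± 0.28, adjusted p = 0.00569). For Por the difference from the same-day rats was 0.51 (adjusted p = 0.319). The list had 4 higher and 3 lower without 25 mg/kg rat 6, and without 25 mg/kg rat 2 Ugt2b1 lost its call. Cyp1a1, the enzyme most induced by the aryl hydrocarbon receptor, had signals of 592, 276, 261, 519, 21 and 4 in 25 mg/kg rats 1 to 6, against 7, 9, 11, 31, 5 and 7 in vehicle rats 1 to 6 (log2 change 2.63 ± 0.59, adjusted p = 0.00202). It was high in 25 mg/kg rats 1 to 4 and near the vehicle level in rats 5 and 6. Ahr, the receptor, rose by 1.18 (adjusted p = 0.00515; against the same-day rats 0.0995), and the other 5 of the 7 measured genes of this list were not called.

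Of 22 acute phase proteins 2 rose and 0 fell, beside 5.48% and 3.07% of all genes. With each array centred on its median 2 rose and 6 fell, beside 479 higher and 1160 lower of all 14217 genes. A2m, alpha-2-macroglobulin, had signals of 13319, 27232, 8959, 17938, 9480 and 88 in 25 mg/kg rats 1 to 6, against 651, 797, 388, 144, 195 and 147 in vehicle rats 1 to 6 (log2 change 4.25 ± 1.43, adjusted p = 0.0476). Rat 6 was the lowest of all 12 and the other 25 mg/kg rats were above every vehicle rat, and without rat 6 the change was 5.43 (adjusted p = 0.00593). Leaving out any of the other 11 rats took the call away (adjusted p up to 0.126). Lbp, the lipopolysaccharide binding protein, had 4037 to 14943 (median 10341) in the 25 mg/kg rats, against 2838 to 7167 (median 3167) in vehicle rats (log2 change 1.39 ± 0.32, adjusted p = 0.0029), with vehicle rat 2 the high vehicle rat. Of 10 negative acute phase proteins 3 fell, or 8 with median centring, among them Serpina6, the corticosteroid carrier, with 4114 to 29385 (median 10264) in the 25 mg/kg rats, against 30354 to 34338 (median 31441) in vehicle rats (log2 change -1.70 ± 0.50, adjusted p = 0.0197), and Apoa4, an apolipoprotein (log2 change -1.10 ± 0.21, adjusted p = 0.000342). Of 21 urea cycle and amino acid enzymes 4 fell, or 10 with median centring, including Oat, ornithine aminotransferase (log2 change -1.27 ± 0.35, adjusted p = 0.011), Hal, histidine ammonia-lyase (log2 change -0.74 ± 0.22, adjusted p = 0.0206), and Gls2, liver glutaminase (log2 change -0.71 ± 0.24, adjusted p = 0.0456). Serpina6 lost its call without 25 mg/kg rat 1, 2 or 4, Oat without rat 2, Hal without rat 1 or 2, and Gls2 in 9 of the 12 fits that left out a rat and against the same-day rats (adjusted p = 0.255). Among 26 cytokines and chemokines Tgfb1 rose (log2 change 1.78 ± 0.53, adjusted p = 0.0227), or 3 without 25 mg/kg rat 6. Tgfb1 lost its call in 5 of those 12 fits and against the same-day rats (adjusted p = 0.122). Its list thus had 1 of 26 higher, beside 5.48% of all genes. Among 22 interferon-induced genes Psmb8, a proteasome subunit (log2 change -0.62 ± 0.14, adjusted p = 0.00237), and Bst2, an antiviral membrane protein (log2 change -0.51 ± 0.14, adjusted p = 0.0132), fell. Bst2 lost its call without 25 mg/kg rat 2 and against the same-day rats (adjusted p = 0.396), and without 25 mg/kg rat 6, 1 of the list rose. The interferon counts of 0 higher and 2 lower of 22 stand beside 5.48% and 3.07% of all genes.

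Several other genes had groups that did not overlap. Sgk1, a kinase induced by glucocorticoids, had signals of 1347, 1261, 1560, 1247, 3350 and 1770 in 25 mg/kg rats 1 to 6, against 10721, 6456, 4919, 3437, 6712 and 4492 in vehicle rats 1 to 6 (log2 change -1.79 ± 0.41, adjusted p = 0.00272), and the difference from the same-day rats was -1.05 (adjusted p = 0.104). Ethe1, a mitochondrial sulfur dioxygenase, had 836, 601, 1216, 786, 1671 and 2388 in 25 mg/kg rats 1 to 6, against 3117, 4250, 6536, 5267, 4539 and 3053 in vehicle rats 1 to 6 (log2 change -1.93 ± 0.35, adjusted p = 0.00019). Its difference from the same-day rats was -1.80 (adjusted p = 0.000863). Per1, a clock gene, had 203 to 582 (median 309) in the 25 mg/kg rats, against 25 to 135 (median 84) in vehicle rats (log2 change 1.89 ± 0.47, adjusted p = 0.00557), and of 16 clock genes Bhlhe41 also rose (log2 change 1.96 ± 0.66, adjusted p = 0.0472) and Npas2 fell (log2 change -1.40 ± 0.41, adjusted p = 0.021). The clock counts of 2 higher and 1 lower of 16 stand beside 5.48% and 3.07% of all genes. Without 25 mg/kg rat 6 the list had 4 higher and 2 lower, beside 8.02% and 4.59% of all genes. Bhlhe41 lost its call in 10 of the 12 fits that left out a rat and Npas2 without 25 mg/kg rat 2 or 4. Against the same-day rats Per1 was 1.45 (adjusted p = 0.0676), Bhlhe41 1.37 (adjusted p = 0.256) and Npas2 -0.82 (adjusted p = 0.275).

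The lower doses at 48 h were compared with the same vehicle rats, so these comparisons share them. The hybridisation day of the 25 mg/kg arrays was shared by 5 of 6 arrays at 20 mg/kg and 0 vehicle arrays. At 10 and 5 mg/kg it was shared by 3 and 2 arrays, so day and dose rose together. The number of called genes was 0 at 5 mg/kg (509 at an unadjusted p under 0.05), 7 at 10 mg/kg (0.0492%), 38 at 20 mg/kg (0.267%) and 1216 at 25 mg/kg. At 10 mg/kg 3 were higher (0.0211%) and 4 lower (0.0281%), and at 20 mg/kg 26 were higher (0.183%) and 12 lower (0.0844%). Necrosis scores were 0 in all rats at 5 and 10 mg/kg and in 5 of 6 rats at 20 mg/kg, where rat 3 had a score of 1. Rats at 25 and 20 mg/kg differed in 0 genes by limma (575 at an unadjusted p under 0.05). The difference between 25 and 20 mg/kg was 1.42 for Kif20a (95% confidence interval 0.46 to 2.37), 1.07 for Gpnmb (-0.15 to 2.28), -2.37 for Scd (-4.83 to 0.08) and -0.03 for Hsd3b7 (-0.36 to 0.30), each with an adjusted p of 0.999. Such intervals still allow large differences for the first 3 genes. Leaving out 20 mg/kg rat 3 took the calls at 20 mg/kg to 0, and leaving out 20 mg/kg rat 1 took them to 242.

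By dose, the change of Hsd3b7 was 0.02 at 5 mg/kg, -0.11 at 10 mg/kg, -0.90 at 20 mg/kg (adjusted p = 0.00549) and -0.94 at 25 mg/kg. That of Rxra was 0.31, 0.55, 1.53 (adjusted p = 0.00549) and 1.63 at the same doses. For Slc22a5 the 4 changes were 0.01, 0.79, 0.99 (adjusted p = 0.0357) and 1.48. These genes passed at 20 and 25 mg/kg, as did Csf1r (0.70 at 20 mg/kg, adjusted p = 0.0139). The part of hybridisation day in these series cannot be told apart from that of dose. The called values at 20 mg/kg included none of the cell cycle or fatty acid synthesis genes.

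The list means show which rats at the lower doses carried these changes. For cell cycle genes the mean log2(signal + 16) was 6.46 to 6.81 in 10 mg/kg rats and 6.37, 6.71, 8.04, 6.61, 9.45 and 7.53 in 20 mg/kg rats 1 to 6. For macrophage markers it was 9.96 to 10.42 at 10 mg/kg, 10.33, 10.19, 11.84, 10.02, 12.02 and 11.13 in 20 mg/kg rats 1 to 6, and 11.58, 11.51, 11.93, 11.70, 11.44 and 9.90 in 25 mg/kg rats 1 to 6, against 10.02 to 10.55 in vehicle rats. At 20 mg/kg both lists were highest in rat 5, which had a score of 0, and in rat 3, which had a score of 1. For fatty acid synthesis the mean was 11.97, 11.88, 10.68, 10.52, 10.43 and 9.98 in 10 mg/kg rats 1 to 6, 11.90, 11.96, 10.27, 11.88, 10.08 and 11.27 in 20 mg/kg rats 1 to 6, and 10.42, 10.30, 10.43, 10.14, 11.13 and 11.61 in 25 mg/kg rats 1 to 6, against 11.62 to 12.40 in vehicle rats. Low values thus occurred in 10 mg/kg rats 3 to 6, whose scores were all 0 and whose cell cycle and macrophage means were at the vehicle level. Of these, rats 4 to 6 were hybridised on another day than 10 mg/kg rats 1 to 3. The part of day in this split was not tested.

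**Figure D3:**
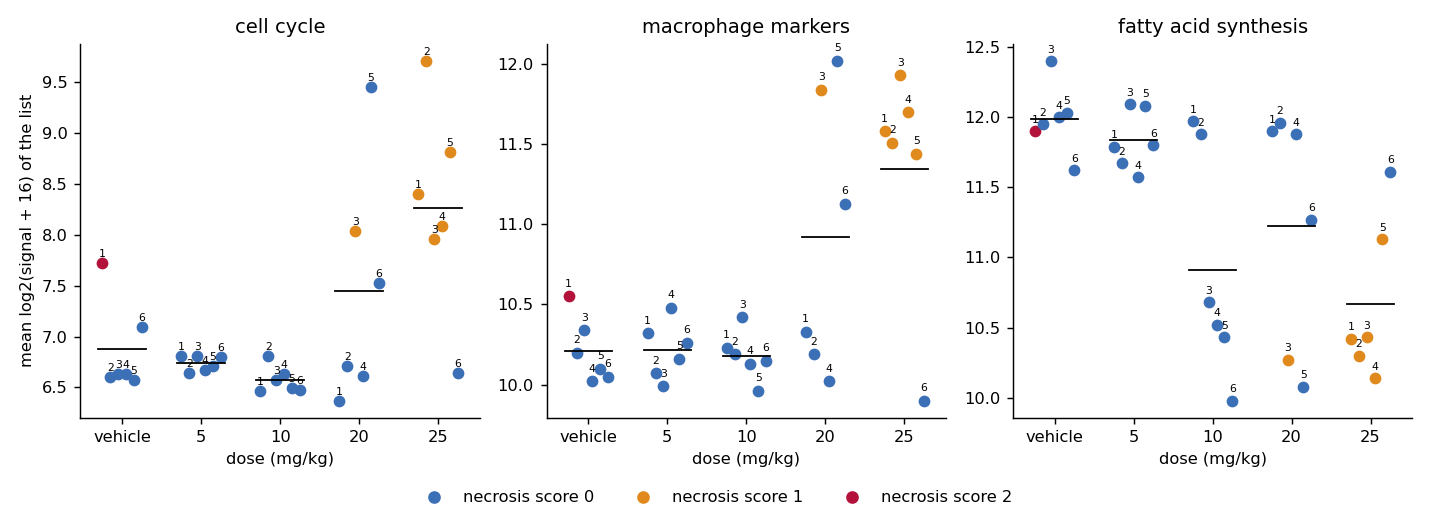
Mean log2(signal + 16) of 3 gene lists in every rat at 48 h by dose (mg/kg), each point a rat with its number, coloured by necrosis score, with a line at each group's mean. Cell cycle and macrophage means were high in 25 mg/kg rats 1 to 5 and in 20 mg/kg rats 3 and 5, and fatty acid synthesis was low also in 10 mg/kg rats 3 to 6.

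At 24 h, other rats at 25 mg/kg had scores of 0, 2, 4, 0, 3 and 3 and vehicle rats of that time had 1, 0, 0, 0, 0 and 0. Against their own vehicle rats 3085 genes were called at 24 h, 1710 higher (12%) and 1375 lower (9.67%), and at 6 h 1452 were higher (10.2%) and 2282 lower (16.1%). The change at 48 h differed from that at 24 h in 817 genes (5.75%), being more positive at 48 h in 357 (2.51%) and more negative in 460 (3.24%). With each array centred on its median these were 222 and 655.

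Cell division genes were among those with a more positive change at 48 h. Kif20a changed by 2.60 ± 0.48 at 48 h and -0.72 ± 0.48 at 24 h (difference 3.33 ± 0.68, adjusted p = 0.00103). Cdca3 changed by 2.33 ± 0.55 at 48 h and -0.53 ± 0.55 at 24 h (difference 2.85 ± 0.78, adjusted p = 0.0177). In 6 of 33 cell cycle genes the change was more positive at 48 h and in 0 more negative, and 4 had been higher at 24 h. The female-pattern genes turned likewise, with Cyp2c12 at 1.85 ± 0.40 at 48 h and -1.41 ± 0.40 at 24 h (difference 3.27 ± 0.57, adjusted p = 9.91e-05) and Cux2 at 2.77 ± 0.56 at 48 h and -0.42 ± 0.56 at 24 h (difference 3.19 ± 0.80, adjusted p = 0.009). Cyp2c12 had thus been lower than vehicle at 24 h (adjusted p = 0.00638). Rxra, too, was lower at 24 h and higher at 48 h, with 1.63 ± 0.29 at 48 h and -0.81 ± 0.29 at 24 h (difference 2.44 ± 0.40, adjusted p = 3.73e-05). Cyp1a1 changed by 2.63 ± 0.59 at 48 h and -0.07 ± 0.59 at 24 h (difference 2.71 ± 0.83, adjusted p = 0.0364). Hsd3b7 went the other way, with -0.94 ± 0.17 at 48 h and 0.23 ± 0.17 at 24 h (difference -1.16 ± 0.23, adjusted p = 0.00095).

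Several chemokines that were higher at 24 h were not called at 48 h. Ccl3, which attracts leukocytes, changed by 0.79 ± 0.70 at 48 h and 3.93 ± 0.70 at 24 h (difference -3.14 ± 0.99, adjusted p = 0.0436). Its relative Ccl4 changed by 0.24 ± 0.56 at 48 h and 3.19 ± 0.56 at 24 h (difference -2.95 ± 0.79, adjusted p = 0.0152) and Cxcl1, which attracts neutrophils, by -0.11 ± 0.64 at 48 h and 2.75 ± 0.64 at 24 h (difference -2.86 ± 0.90, adjusted p = 0.042). Isg15, an interferon-induced protein, changed by 0.05 ± 0.41 at 48 h and 2.18 ± 0.41 at 24 h (difference -2.13 ± 0.58, adjusted p = 0.0173). In the cytokine list 9 of 26 genes were higher and 2 lower at 24 h, and the change at 48 h was more negative in 3 and more positive in 1. Gsr changed by -0.71 ± 0.23 at 48 h and 1.26 ± 0.23 at 24 h (difference -1.97 ± 0.32, adjusted p = 3.48e-05), and NRF2 targets had a median of 0.76 with 7 of 17 higher and 1 lower at 24 h, while at 48 h 0 were higher. Of the ER stress and ATF4 targets 10 were higher at 24 h, and of the immediate early genes 8.

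Fatty acid synthesis genes were called lower at both times, 7 of 16 at 48 h and 15 of 16 at 24 h (median -2.01 at 24 h), and the difference of Scd, -5.54 ± 1.23 at 48 h and -3.82 ± 1.23 at 24 h (difference -1.72 ± 1.74, adjusted p = 0.616), did not pass. Cholesterol synthesis genes had been lower in 12 of 18 at 24 h (median -1.03) and had a more positive change at 48 h in 7. Bile acid genes were lower in 13 of 17 at 24 h, and 6 had a more positive change at 48 h. Gpnmb was higher at both times, with 3.09 ± 0.61 at 48 h and 3.13 ± 0.61 at 24 h (difference -0.04 ± 0.86, adjusted p = 0.986), while Csf1r was called only at 48 h, with 0.88 ± 0.14 at 48 h and -0.21 ± 0.14 at 24 h (difference 1.09 ± 0.21, adjusted p = 0.000327).

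**Figure D4:**
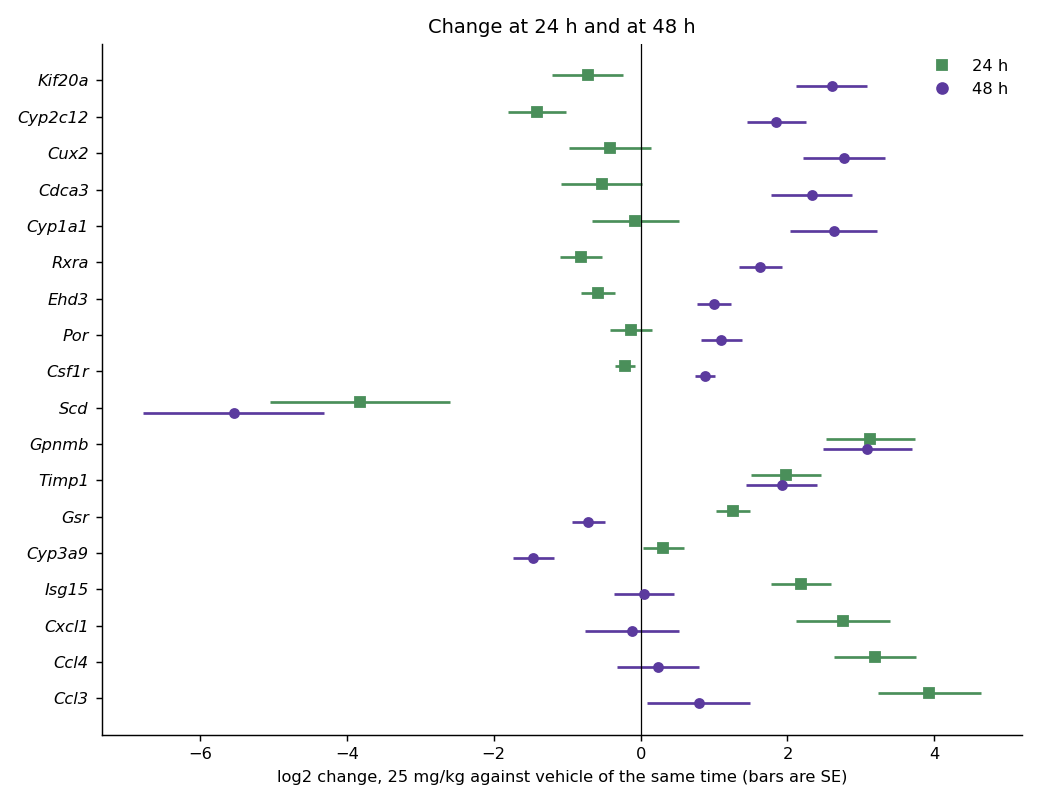
Log2 change at 25 mg/kg against vehicle rats of the same time for 18 genes, with squares for 24 h, circles for 48 h and bars of 1 SE. Kif20a, Cyp2c12, Cux2 and Cyp1a1 were near or below 0 at 24 h and above 0 at 48 h, while Ccl3, Ccl4, Cxcl1 and Isg15 were high at 24 h and near 0 at 48 h.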

How the data were processed

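Per the labels, the authors summarised each array with MAS5 (version not stated), and the deposited table holds log2 signals, 1 per probe set and array. Their linear values have a mean of 500 on every array after trimming. Values were put back on the linear scale, 16 was added, and log2 was taken again, with no other normalization. Probe sets with exactly 1 symbol were kept (20826 of 31099), since the 436 with several and 9780 with none cannot be tied to a gene. For a gene with several, the brightest on average stood for it, giving 14217 genes. Of the 98 named genes 25 had several probe sets, with signs that all agreed in 23.

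Replicates are different animals. All 90 diquat arrays were fitted together in limma 3.58.1 under R 4.3.3, using an intensity trend in eBayes and 1 mean per dose and time, and p-values were corrected per contrast by Benjamini-Hochberg. Scores were compared by exact permutation. On simulated data with 200 changed genes, 62.5% of log2 changes of 1 and 97.5% of those of 2 were recovered, with 4 and 11 false calls. The simulated noise was independent and normal, with 1 spread per gene in every group. It had no effect of day, and the shift was equal in all dosed rats. These rates therefore need not hold for the real arrays.

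Genes are named by a rule. It takes the 15 highest and 15 lowest changes of called genes without overlap, up to 4 called members of each of 35 lists by adjusted p, a bright member where none was called, and the 8 highest and 8 lowest called differences between 48 h and 24 h. The members and lists were chosen with earlier results of these data known. Alternatives were pseudocounts of 1 and 64, quantile normalization, median centring, the brighter genes alone, averaged probe sets, other sets of arrays, hybridisation day as a random block or fixed term, a 2-fold minimum, and leaving out each rat. The same-day comparison by list and the fit without 25 mg/kg rat 6 and vehicle rat 1 were chosen after seeing the data. Promoters came from RefSeq (GRCr8), and the motifs were chosen after the results were seen.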

Additional observations from a re-analysis of the deposited data

Results flagged for a closer look

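Among 98 named genes and the scores, 34 of 198 groups of 6 rats (17.2%) held 1 rat set apart from the others. The gap to the nearest other rat, divided by the range, exceeded Dixon's 95% limit for groups of 6. About 1 in 20 independent normal groups pass it, but these genes were chosen from these data and many move together. So 1 in 20 is no fair reference here. Each score group was tied but for 1 rat, which sets the flag by itself. Of the 15 such groups at 25 mg/kg, 14 had rat 6 apart, and of the 19 in vehicle rats 5 had rat 1 apart. In 25 mg/kg rat 6 the necrosis score was 0, and signals were low for A2m (88), Prc1 (13), Tgfb1 (24), Bhlhe41 (3), Timp1 (238), Timp2 (453), Gpnmb (729), Lgals3 (1045), Cd68 (828), Col1a2 (552), Rgs5, a pericyte gene (138), and Fas (278), and high for Apoa4 (18126). The remaining 25 mg/kg signal apart was Sgk1 in rat 5 (3350).

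Vehicle rat 1 had a necrosis score of 2 and stood apart with high Kif20a (141), Ccl4 (258) and Cyp2c11 (45868) and low Rgs5 (169). Vehicle rat 2 was high for Slc40a1 (3277), Lbp (7167) and Cd163 (796) and low for Rxra (52), Apoa4 (10891) and Bst2 (4661). Vehicle rat 3 was high for Pklr (5873), Por (1862) and Dusp1, a phosphatase (8920), and low for Rprm (321). Vehicle rat 4 was high for Cyp1a1 (31), vehicle rat 5 for Sod1 (39806) and vehicle rat 6 for Cyp3a2 (36015), and vehicle rat 6 was low for Hspd1, a mitochondrial chaperone (14557).

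The change at 25 mg/kg differed between 48 h and 24 h, by limma's test of the difference, in 27 named genes. It was more positive at 48 h, on the log2 scale, for Kif20a (3.33), Cyp2c12 (3.27), Cux2 (3.19), Cdca3 (2.85), Cyp1a1 (2.71), Plk1 (2.48), Rxra (2.44), Bub1b (2.14), Cenpw (2.05), Gpam (1.59), Ehd3, an endothelial gene (1.58), Nos3 (1.43), Slc22a5 (1.30), Por (1.23), Cyp8b1 (1.14), Csf1r (1.09), Sparc (1.02) and Slc40a1 (0.82). It was more negative for Ccl3 (-3.14), Ccl4 (-2.95), Cxcl1 (-2.86), Isg15 (-2.13), Gsr (-1.97), Cyp3a9 (-1.77), Hsd3b7 (-1.16), Hbb (-1.15) and Hspa5, an ER chaperone (-0.49). Adjusted p ranged up to 0.0458, for Hspa5.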

How the results depend on the processing

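The 1216 calls at 25 mg/kg became 0 with day as a fixed term and 354 with a 2-fold minimum, ran from 721 to 1793 when each rat was left out, and stayed within 1.5 times under the other settings run. Calls at 20 mg/kg (38) were 72 in the brighter genes alone, 67 with probe sets averaged, 0 with only the groups compared, 293 with all arrays in 1 fit, 18 with day as a random block, 0 with day fixed and 6 at 2-fold, and 0 to 242 when each rat was left out. Those at 10 mg/kg (7) were 12 with a pseudocount of 64, 3 with quantile normalization, median centring or random day, 29 in the brighter genes, 13 with probe sets averaged, 0 with only the groups compared or day fixed, 157 with all arrays, and 0 to 134 leaving out a rat. At 5 mg/kg only the fit of the groups compared made 1 call, and leaving out a rat gave 0 to 1. Between 25 and 20 mg/kg all arrays in 1 fit gave 2, and leaving out a rat 0 to 5. Differences between 48 h and 24 h (817) were 1326 with all arrays, 532 with random day, 0 with day fixed, 251 at 2-fold and 483 to 1271 leaving out a rat. The score difference ran from 0.433 to 0.833 leaving out a rat. The causes were not tested.

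Some named genes reversed. Hspa5 was 0.13 and Isg15 -0.01 with quantile normalization, Isg15 was -0.10 with median centring and Plin2 0.01 with probe sets averaged. With day fixed, Cenpw was -1.70, Rxra -0.14, Gsr 0.22, Hspa5 0.31, Cxcl1 0.44 and Gpam -0.08, and the time differences were -1.73 for Cenpw, 0.04 for Hspa5, -0.14 for Sparc and -0.01 for Gpam. Against same-day rats Hspa5 was 0.02, Cxcl1 0.07 and Isg15 -0.30, and 37 of the 89 named called genes lost the call. Of all 98 named genes 58 kept direction and side of the threshold, a count that includes genes called in neither fit. Over the fits that left out a rat Isg15 ran from -0.18 to 0.17, with -0.18, -0.02 and -0.06 without 25 mg/kg rat 1, 25 mg/kg rat 3 and vehicle rat 2, and Cxcl1 was 0.03 and 0.18 without 25 mg/kg rat 6 and vehicle rat 2. Of 89 named called genes, 61 were called in every fit that left out a rat. With only the groups compared, 1 named gene gained a call and 2 lost it. No paired analysis was possible because the labels give no replicate numbers. With 6 arrays a group, the number of arrays limits the precision.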

Other observations

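Other gene groups changed in few members. The shares called over all genes were 5.48% higher and 3.07% lower. Of 16 genes of the plasminogen system and proteases 3 rose, Timp1, its relative Timp2 (log2 change 0.86 ± 0.21, adjusted p = 0.00529) and Mmp12, macrophage elastase, with 107 to 860 (median 611) in the 25 mg/kg rats, against 51 to 195 (median 84) in vehicle rats (log2 change 2.00 ± 0.64, adjusted p = 0.0358). Mmp12 lost its call in 8 of the 12 fits that left out a rat. Among 16 growth factor and activin genes Id1, a target of BMP signals, rose (log2 change 1.15 ± 0.38, adjusted p = 0.0406), which lost its call in 8 of those fits, and without 25 mg/kg rat 6, 2 of this list fell. Of 11 pericentral genes, which mark hepatocytes around the central vein, Slc1a2, a glutamate transporter, rose with signals of 753, 456, 471, 609, 129 and 30 in 25 mg/kg rats 1 to 6, against 11, 109, 11, 92, 77 and 84 in vehicle rats 1 to 6 (log2 change 2.16 ± 0.60, adjusted p = 0.0132), although its probe sets did not all move the same way, and Oat fell. Slc1a2 lost its call without 25 mg/kg rat 1 and against the same-day low-dose rats (adjusted p = 0.286). Among 15 genes of gluconeogenesis and fasting Pygl, liver glycogen phosphorylase, fell, with 4161 to 11482 (median 4456) in the 25 mg/kg rats, against 10081 to 12679 (median 11807) in vehicle rats (log2 change -1.03 ± 0.28, adjusted p = 0.0115), and did not pass against the same-day rats (adjusted p = 0.122). Of 9 markers of bile duct and progenitor cells Spp1 was the one called, and of 10 pancreatic acinar genes 0 were called by limma (2 lower at an unadjusted p under 0.05).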
